A study of Mus musculus with 8 samples.

Results

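The subject is the long noncoding RNA (lncRNA) genes that lie outside coding genes. The members were the 4206 genes of GENCODE M21 on mouse chromosomes 1 to 19 that are typed lincRNA, antisense, processed_transcript or bidirectional_promoter_lncRNA and have no base within 5 kb of the span of a protein-coding gene. They were chosen from 29872 protein-coding and lncRNA genes on these chromosomes, of which 20807 are protein-coding and 4859 are lncRNA genes closer than 5 kb to a coding gene. Of the members, 3958 are typed lincRNA, 181 processed_transcript, 66 antisense and 1 bidirectional_promoter_lncRNA. ChIP–seq of the histone mark H3K36me3 was performed in mouse embryonic fibroblasts (MEFs) from an E13.5 embryo, the embryo called MEF 1 in the study and Clone 1 in the labels. The cells carry OCT4, SOX2, KLF4 and MYC (OSKM) under a doxycycline-inducible promoter, so the MEF groups hold the same transgene without the inducer. All cells were kept for 72 h in the medium used for induced pluripotent stem cells, either untreated (MEF), with 2 µM vitamin B12 (MEF B12), with 1 µg/ml doxycycline (OSKM) or with doxycycline and vitamin B12 (OSKM B12). There was 1 H3K36me3 library and 1 input for each condition, all from the same embryo, so differences between conditions are differences between single libraries and carry no p-value. Where values of all 4 libraries are listed, they follow the order MEF, MEF B12, OSKM, OSKM B12. The labels' extraction text and the study's methods spell the antibody's target H3K3me3, whereas the series and the study elsewhere name H3K36me3.

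H3K36me3 is laid down by the methyltransferase SETD2, which travels with elongating RNA polymerase II, so the mark lies over the bodies of transcribed genes and is usually denser towards their 3′ ends. In a lncRNA gene that overlaps or adjoins a coding gene, the mark cannot be assigned to one of them, and a distance from coding genes lessens this without removing it, since transcription can run on past a gene's end. Some of these genes act through the RNA itself, as Malat1 in nuclear speckles, and others serve mainly as hosts from which microRNAs (miRNAs) or small nucleolar RNAs (snoRNAs) are cut.

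The miRNAs that lie inside marked members are shown first, since miRNA and snoRNA hosts made up 17 of the 55 members with the mark described below. Of the 33 miRNA genes held by these members, 32 had mature sequences in RefSeq (GRCm38.p6), with 60 mature names and 49 different seeds, the bases 2 to 8 that guide target pairing. The seed is in capitals and the host is in brackets. The let-7 seed came from 2 hosts on different chromosomes, the miR-17, miR-18, miR-19 and miR-92 seeds from the miR-17-92 cluster in Mir17hg, and the miR-181 seed from 2 overlapping hosts. The other sequences shown come from hosts in the imprinted region on chromosome 12, from H19 and from E130102H24Rik.
mmu-let-7a-5p (6720427I07Rik): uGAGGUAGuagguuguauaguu
mmu-let-7d-5p (6720427I07Rik): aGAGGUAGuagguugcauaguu
mmu-let-7f-5p (6720427I07Rik): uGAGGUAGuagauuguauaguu
mmu-let-7b-5p (Lncppara): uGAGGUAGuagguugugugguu
mmu-let-7c-5p (Lncppara): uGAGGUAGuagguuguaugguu
mmu-miR-17-5p (Mir17hg): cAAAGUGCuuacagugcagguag
mmu-miR-20a-5p (Mir17hg): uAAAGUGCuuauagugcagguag
mmu-miR-18a-5p (Mir17hg): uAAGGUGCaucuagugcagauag
mmu-miR-19a-3p (Mir17hg): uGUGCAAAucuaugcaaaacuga
mmu-miR-19b-3p (Mir17hg): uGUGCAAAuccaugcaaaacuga
mmu-miR-92a-3p (Mir17hg): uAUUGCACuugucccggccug
mmu-miR-181a-5p (Gm4258): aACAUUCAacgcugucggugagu
mmu-miR-181b-5p (Gm4258 and A430106G13Rik): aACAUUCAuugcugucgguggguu
mmu-miR-453 (Mirg): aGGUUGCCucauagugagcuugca
mmu-miR-496a-5p (Mirg): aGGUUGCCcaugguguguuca
mmu-miR-134-5p (Mirg): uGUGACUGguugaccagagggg
mmu-miR-410-3p (Mirg): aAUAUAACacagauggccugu
mmu-miR-770-5p (Meg3): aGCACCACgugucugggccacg
mmu-miR-675-5p (H19): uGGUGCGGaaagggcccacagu
mmu-miR-101a-3p (E130102H24Rik): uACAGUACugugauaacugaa

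The values came from the authors' lists of broad peaks, 1 list per H3K36me3 library, each called against its own input. The libraries held 32582688, 29046913, 33399267 and 29627886 tags, and their lists held between 64364 and 67234 peaks on chromosomes 1 to 19. The covered share is the percentage of a gene's span that lies in peaks, and a gene was called marked in a library at a covered share of at least 10%. The scaled pileup is the mean number of stacked fragments over a peak per 1000000 tags, and the density is the scaled pileup summed over the covered bases and divided by the length of the span, so that it is a level per base and can be compared between genes. Against the labelled cell type, 9, 10, 9 and 9 of 11 fibroblast markers were marked, and 0 of 9 pluripotency, 0 of 5 epithelial and 0 of 4 muscle markers were marked in any library. Of 4 neural markers 1 was marked in each library but OSKM, and of 4 endothelial markers 1 in OSKM B12 alone. Of 4 blood markers 2 were marked in every library, with median covered shares over the 4 markers between 5.90% and 17.7%, and the part of these cell types in any result was not tested.

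Few members carried the mark. A covered share of at least 10% was found for 53, 61, 29 and 51 members, with OSKM the lowest. With any peak base in place of 10% the counts were 88, 100, 92 and 96, with MEF the lowest, and restricted to peaks whose −log10 q reached 5 they were 17, 18, 6 and 16. The counts at 10% are 1.26% (95% Wilson interval 0.965 to 1.64%), 1.45% (1.13 to 1.86%), 0.689% (0.481 to 0.988%) and 1.21% (0.923 to 1.59%) of the members, and the intervals cover counting error only. Over all 29872 genes the share marked was 33.9%, 35%, 28% and 35.2%. LncRNA genes within 5 kb of a coding gene stood between these, at 20.2%, 20.99%, 15.3% and 21.4%. The intervals of the members and of the other classes did not overlap in any library. Within the members the intervals of MEF and OSKM met. The same members were counted in both, so these separate intervals do not compare the 4 libraries. In total, 4047 members, or 96.2%, had no peak base in any list, which is no enrichment detectable at this depth. A peak touched 159 members in at least 1 library and 51 in all 4, and 69 were marked in at least 1 library and 24 in all 4.

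**Figure D1:**
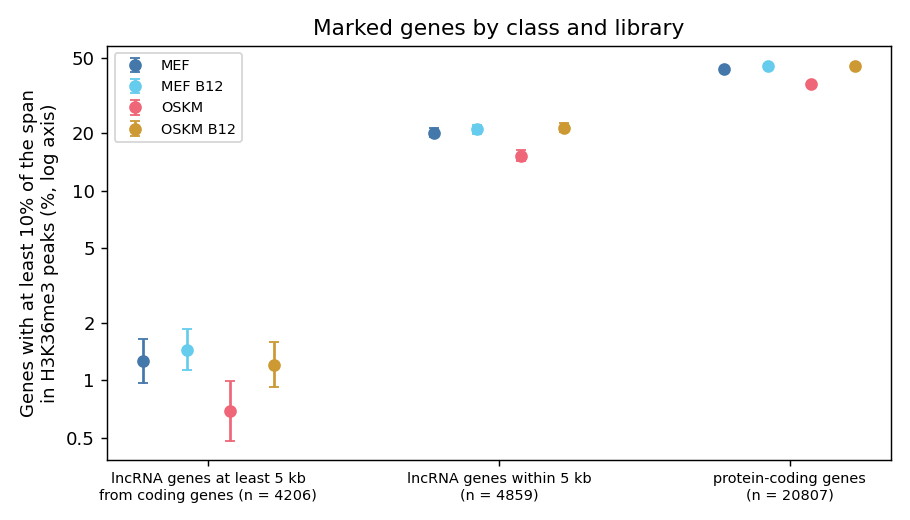
Percentage of genes with at least 10% of the span in H3K36me3 peaks, on a log axis, for the 3 gene classes and 4 libraries. Points are the observed percentages and bars are 95% Wilson intervals. The members sit between 0.689% and 1.45%, the nearby lncRNA genes between 15.3% and 21.4%, and OSKM is the lowest library in each class.

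The members filled 95.9 Mb, and peaks covered 375, 409, 219 and 417 kb of this. These are 0.391%, 0.427%, 0.228% and 0.435% of the length, against 14.3%, 15.5%, 8.80% and 15.5% of the length of protein-coding genes. Of the sequence at least 5 kb from coding genes, 1335 Mb of 2463 Mb, the members made up 7.18%. They held 28.6%, 29.2%, 29.3% and 29.2% of the peak bases in that space, so that the rest of the distant peak bases lay outside annotated members. The members include Trerf1 and Zswim6, genes of 221 and 165 kb that RefSeq types as protein-coding. Trerf1 was covered over 32.4%, 33.1%, 22.0% and 39.1% of its span and Zswim6 over 13.1%, 16.1%, 5.74% and 14.2%. Their peaks are part of the lengths and shares given here, which were not recomputed without them. Peaks that touched members were shorter than the others, with medians of 685, 698.5, 623 and 697 bases against 958, 986, 773 and 963 bases over each list. Their median fold enrichment over input, between 2.55 and 2.65, was near that of the lists, between 2.64 and 2.74. Between 0 and 2 of the 191 to 308 peaks that touched members in a library also reached into a coding gene.

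For the levels, the 55 members with a mean covered share of at least 10% over the 4 libraries were used. They merge into 47 loci where members overlap. Just inside this limit were Gm28876, Gm26979 and Gm4258 with means of 10.9%, 11.2% and 11.6%, and just outside were Gm32817, Gm16267 and Gm32618 with 9.94%, 9.70% and 9.63%. The 55 had a median length of 5961 bases and a median distance of 24270 bases to the nearest coding gene, compared with 8458 and 63348 bases for the 4151 others. Within 10 kb of a coding gene 11 of 370 members were among them (2.97%, Wilson interval 1.67 to 5.24%), and at 100 kb or more 9 of 1566 (0.575%, 0.303 to 1.09%). Members were also split by their neighbour. There were 25 of 1716 members among the 55 where the nearest coding gene was marked (1.46%, 0.989 to 2.14%) and 30 of 2490 where it was not (1.20%, 0.845 to 1.71%), with overlapping intervals. For 6 of the 55 at least 50% of the gap to the nearest coding gene was in peaks in at least 1 library. These were 4732496C06Rik, which lies past Nucb2 on the same strand, and the 5 members of the Meg3 region, whose nearest coding gene Rtl1 is on the opposite strand to all of them but Gm26906.

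Genes with a proper name and hosts of small RNAs held a larger share of marked members than the rest. Of the 86 members with a gene name rather than a Gm, Rik or clone placeholder, 16 were among the 55 (18.6%, Wilson interval 11.8 to 28.1%), and of the 4120 placeholders 39 (0.947%, 0.693 to 1.29%). Of the 55 members that hold a miRNA gene on their strand, 11 were marked (20%, 11.6 to 32.4%), and of the 29 that hold a snoRNA gene, 6 (20.7%, 9.85 to 38.4%). A small RNA gene was thus present in 30.9% of the marked members and in 1.61% of the others. Exons were counted after merging those of all transcripts of a gene, so a spliced gene with an unspliced transcript can count as single-exon. By this count single-exon members were marked at 12 of 200 (6.00%, 3.47 to 10.2%), and those of 5 or more exons at 12 of 885 (1.36%, 0.777 to 2.36%). The single-exon ones include Gm26917, Gm42418 and AY036118, which are described below. RefSeq types 43 members as protein-coding, among them Trerf1, Zswim6, Tmem250-ps and Gm39469 of the 55. Trerf1, Zswim6 and Tmem250-ps are thus part of the 16 with a gene name, and Zswim6 of the 11 with a miRNA gene. A larger number, 147, share a base with a RefSeq protein-coding span, among them 9 of the 55. Meg3, Gm26906 and 1810012K08Rik are among these 9. Trerf1 is a transcriptional regulator of 221 kb and Zswim6 a zinc finger gene of 165 kb, and they are the longest of the 55.

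By mean density, the highest members with a peak in all 4 libraries were Gm23925, Snhg17, Gm27019, Mirg, Malat1, Gm26906 and Meg3. Snhg17, a snoRNA host on chromosome 2 (mm10, 158353700 to 158361580), was covered over 84.6%, 84.3%, 74.0% and 77.8% of its span. Its density was 0.728, 0.836, 0.458 and 0.957, lowest in OSKM and highest in OSKM B12. Gm23925, a 132-base lincRNA that lies inside Snhg17 and almost coincides with a snoRNA gene of that name, was wholly covered in every library and carries the values of the Snhg17 peak.
Malat1, the 7-kb single-exon nuclear speckle RNA on chromosome 19, was covered over 81.1%, 83.3%, 66.6% and 85.6%. Its density was 0.679, 0.794, 0.378 and 0.757, so OSKM was 0.557 of MEF. Gm27019, a 404-base gene on chromosome 6, was wholly covered in each library, with densities of 0.754, 0.765, 0.483 and 0.770. In the same part of chromosome 6, Lncpint, a p53-induced lncRNA of 138 kb, was covered over only 11.4%, 16.7%, 4.75% and 15.1%.

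**Figure D2:**
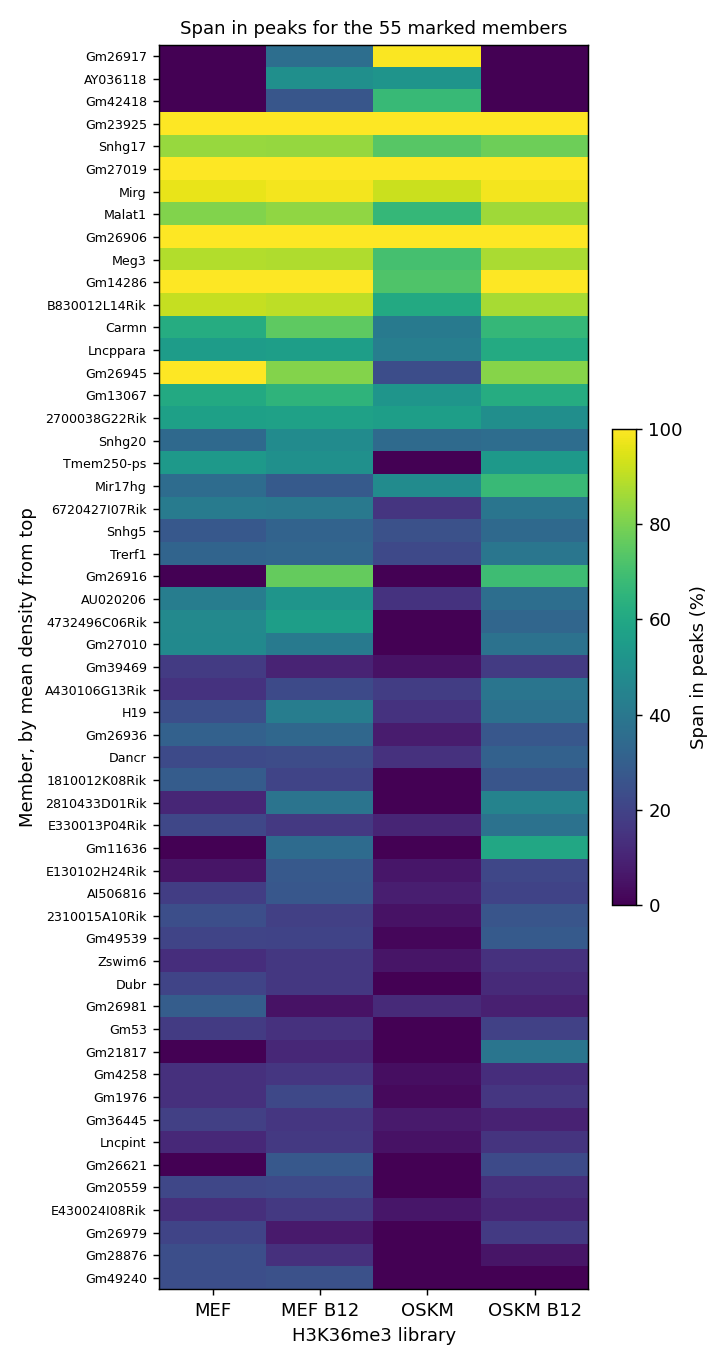
Percentage of the span in peaks for each of the 55 members (rows, ordered by mean density) in each H3K36me3 library (columns), from 0 (dark) to 100% (yellow). The OSKM column is darker than its neighbours for most rows, and Gm26917, AY036118 and Gm42418 at the top are covered only in MEF B12 and OSKM.

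Meg3, Gm26906, Mirg and B830012L14Rik, among the 12 members of highest mean density, belong to the imprinted Dlk1–Dio3 region on chromosome 12, where Meg3, Rian and Mirg are expressed from the maternal chromosome and host snoRNAs and a large group of miRNAs. Between the start of Meg3 and the end of Mirg, a stretch of 208 kb, peaks covered 91.0%, 92.2%, 66.3% and 90.9% of the bases. The number of peaks was 25, 21, 66 and 30, so the same stretch was broken into more and shorter peaks in OSKM. Over the 133 kb in a peak in all 4 libraries the scaled pileup was 0.637, 0.694, 0.465 and 0.756. Meg3 itself (chromosome 12, 109541001 to 109571726, plus strand, 8 exons) lay under 1 peak of 51277 bases in MEF and 1 of 50024 bases in MEF B12, under 7 peaks in OSKM and under 2 in OSKM B12. Its covered share was 88.6%, 88.2%, 70.5% and 87.4%.
Mirg (109729764 to 109749460, plus strand, 14 exons) was covered over 96.5%, 98.1%, 92.0% and 98.2%, and its density was 0.652, 0.731, 0.443 and 0.821. B830012L14Rik, between Rian and Mirg, was covered over 91.1%, 90.1%, 60.8% and 87.0%. Gm26945, a single-exon gene within Rian that holds a snoRNA gene, differed most among the members of the region, from 100% and 81.6% in the MEF libraries to 23.5% in OSKM and 81.9% in OSKM B12. Rian is not a member, since its start lies 3609 bases from Rtl1, and was covered over 87.9%, 94.1%, 49.3% and 87.9%. H19, the maternally expressed lncRNA on chromosome 7, was covered less, over 23.9%, 42.3%, 14.7% and 37.2%.

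**Figure D3:**
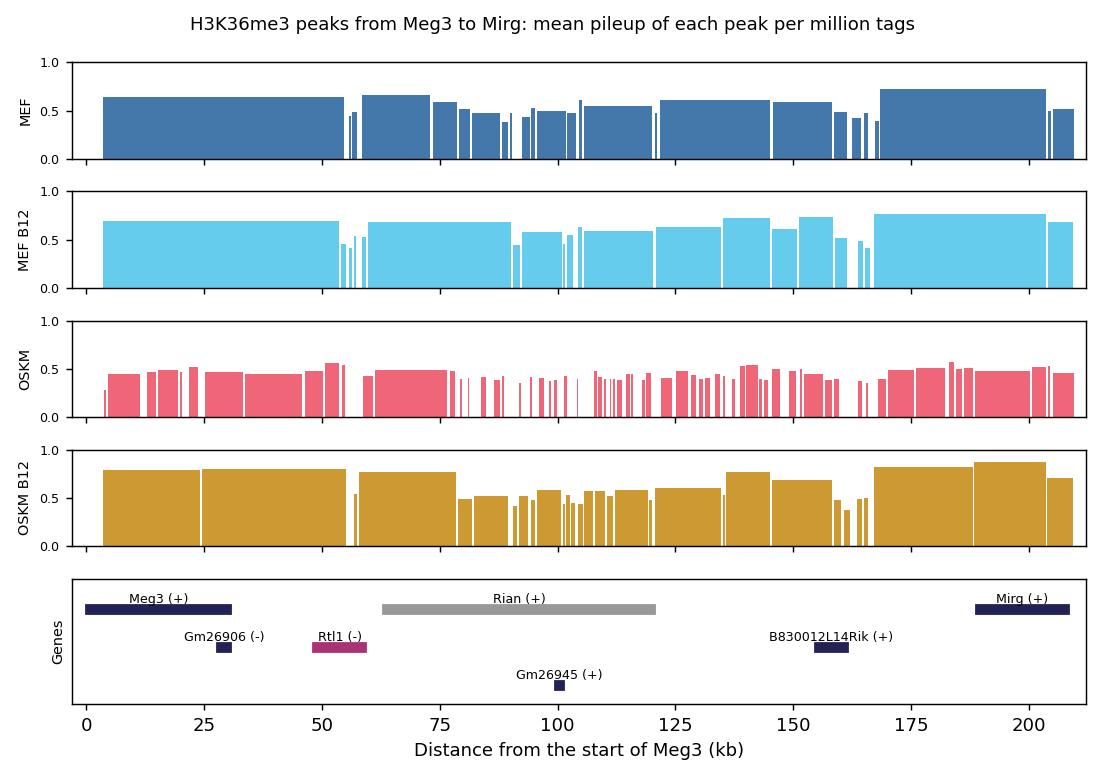
H3K36me3 peaks from Meg3 to Mirg in the 4 libraries, by distance from the start of Meg3 in kb. The height of each block is the mean pileup of that peak per 1000000 tags, and the gene row shows members in dark blue, Rian in grey and the coding gene Rtl1 in purple, with the strand in brackets. OSKM has 66 lower and shorter peaks where MEF, MEF B12 and OSKM B12 have 25, 21 and 30.

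The other miRNA hosts differed in where the mark lay relative to the hairpins. Of the 33 hairpins in marked members, peaks touched 29, 24, 28 and 31, and 23 in all 4 libraries. These hosts were chosen by the peaks over their spans, so the counts do not show that the mark favours hairpins. All members together hold 96 miRNA genes. Mir770 of Meg3 was in a peak throughout, and Mir1906-1 only in MEF and OSKM B12. All 14 hairpins of Mirg were wholly in peaks in each library. Lncppara, a 54-kb gene on chromosome 15 that ends with the let-7c-2 and let-7b hairpins, was covered over 55.2%, 56.0%, 42.9% and 61.2%. Both hairpins lay in its last and strongest peak, whose scaled pileup was 0.831, 0.974, 0.592 and 1.08. The other let-7 host, 6720427I07Rik on chromosome 13, holds let-7d, let-7f-1 and let-7a-1 and was covered over 41.5%, 40.6%, 15.6% and 38.8%. In OSKM the peak reached the let-7f-1 and let-7a-1 hairpins but not let-7d.
Mir17hg, host of the proliferative miR-17-92 cluster on chromosome 14 and a target of MYC, was covered over 35.2%, 28.3%, 48.3% and 67.9%. Its density was 0.168, 0.127, 0.186 and 0.325. Of its 6 hairpins, all were wholly in a peak in OSKM B12 and none was touched in MEF B12, while 4 were touched in MEF and 5 in OSKM. Its peaks were wider in OSKM than in MEF but lower, with scaled pileups of 0.348 and 0.411 against 0.510 and 0.462. The peaks behind these values were weak, with a −log10 q between 1.37 and 3.12, close to the calling limit.
Gm4258, a 102-kb gene on chromosome 1 that holds miR-181a-1 and miR-181b-1, was covered over 14.01%, 15.8%, 3.52% and 12.9%, yet both hairpins were wholly in a peak in every library. E130102H24Rik, the host of miR-101a, was covered over 5.80%, 27.8%, 6.03% and 21.3%, highest in the B12 libraries, and its hairpin was in a peak in all 4. Gm49317 and 3110039I08Rik, overlapping genes that hold miR-100, let-7a-2 and miR-125b-1, stayed below 10% in every library, at 1.97 to 7.51% and 1.93 to 4.96%.

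Of the 9 snoRNA genes in marked members, whose hosts were chosen by peaks in the same way, peaks touched 5, 5, 3 and 5, and 4 were touched in no library. Besides Snhg17, Snhg20 was covered over 34.1%, 48.1%, 34.5% and 35.7% and Snhg5 over 27.6%, 31.7%, 24.9% and 34.3%. 2700038G22Rik, which holds Snord93, was covered over 56.7%, 57.3%, 55.9% and 49.5%. Dancr, a lncRNA that holds Snora26 and is known for restraining differentiation, was covered over 22.6%, 23.3%, 14.4% and 31.2%.

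The gene lists for other roles are given by their counts, and no test separates them. By mean share, 55 of all 4206 members were marked. In single libraries 0.689% to 1.45% of members were marked, beside 28% to 35.2% of all genes. Of the 19 members on the pluripotency list, 18 Platr genes and Lncenc1, 0 had a peak base in any library, beside 96.2% of all members without one, so that this count is near the background. Of 6 members on the mesenchyme and development list, 3 were marked in each library, namely Meg3, H19 and Carmn. Carmn, the smooth muscle lncRNA beside miR-143 and miR-145, was covered over 61.7%, 75.2%, 40.9% and 66.6%. Its neighbour Bvht reached at most 9.20%, and Rmst and Paupar had no peak. All 3 members on the imprinted list, Meg3, Mirg and H19, were marked in all 4 libraries, and Meg3 and H19 stand on both lists. Of the 3 members on the nuclear body and chromatin list, Malat1 was marked and Miat and Hotair had no peak. Of the 4 members on the growth and p53 list only Dancr was marked. Pvt1, the 340-kb gene next to Myc, was covered over 6.41%, 5.19%, 2.55% and 8.78%, and Trp53cor1 (lincRNA-p21), next to Cdkn1a, over 6.36%, 3.18%, 0 and 6.05%. Of the 56 members on the list of miRNA hosts 12 were marked by their mean share, and of the 30 on the list of snoRNA hosts 7.

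The comparison of OSKM with MEF asked how the mark differed after 72 h of doxycycline, which induces the factors. No library had doxycycline without the factors, so the drug and the factors cannot be told apart. Fewer members were marked in OSKM, 29 against 53, and 28 of the 53 were marked in MEF and not in OSKM while 4 of the 29 were marked in OSKM and not in MEF. The first is 52.8% of the members marked in MEF (Wilson interval 39.7 to 65.6%), beside 28.0% of nearby lncRNA genes and 17.03% of coding genes, and the second is 13.8% (5.50 to 30.6%), beside 4.85% and 0.749%. Members also crossed the limit more often between MEF and MEF B12. Of members marked in MEF B12, 23.0% were not marked in MEF, beside 9.12% of nearby lncRNA genes and 4.27% of coding genes. Of those marked in MEF, 11.3% were not marked in MEF B12, beside 5.41% and 1.41%. The part of nearness to the limit in these shares was not tested. The mean covered share of the 55 was 36.7% in MEF and 26.6% in OSKM, a ratio of 0.725. The density was lower in OSKM for 47 of 55 members, higher for 4 and 0 in both for 4. This is 85.5% lower, beside 98.0% of the 10123 genes of all classes that met the same limit. The median log2 change was −0.66, beside −0.71 over all these genes. At least 2-fold lower, with 0.05 added to each density, were 17 of 55 (30.9%), against 30.1% of nearby lncRNA genes and 20.1% of all genes. At least 2-fold higher were 3 of 55, against 1.22% of nearby lncRNA genes and 0.257% of all genes. Those 3 are the ones at a single locus of chromosome 17 described below. They had no peak in MEF and met the mean limit only through MEF B12 and OSKM. Without them the ratio of covered shares was 0.616, 17 of 52 were at least 2-fold lower and 0 higher, and Mir17hg was the only member of higher density in OSKM (0.186 against 0.168). Over the 167 kb of member sequence in a peak in all 4 libraries the scaled pileup was 0.649 in MEF and 0.489 in OSKM, a ratio of 0.754 with a counting error of 2.69%, against 0.755 over coding genes.
By the rule used, the largest falls were at Tmem250-ps, Gm27010, 4732496C06Rik and 1810012K08Rik, which had no peak in OSKM. Tmem250-ps, on chromosome 2, was covered over 54.1% in MEF, 50.3% in MEF B12 and 53.9% in OSKM B12. 1810012K08Rik lies within it on the other strand, so they share peaks, with 29.2%, 20.3% and 26.6%. Gm27010, a 1.41-kb gene near Kcnrg on chromosome 14, was covered over 47.3%, 41.1% and 37.5%, and 4732496C06Rik over 47.1%, 56.1% and 32.8%. Fewer cells with the mark, less mark per cell and a difference between the single libraries themselves cannot be told apart in these bulk data.

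The comparison of OSKM B12 with OSKM asked what vitamin B12 added during reprogramming, and it shares the OSKM library with the comparison above. The number of marked members was 51 in OSKM B12 and 29 in OSKM, or 1.21% and 0.689%, beside 35.2% and 28% of all genes. Of the 51, 27 were not marked in OSKM (52.9%), beside 30.7% of nearby lncRNA genes and 19.5% of coding genes. Of the 29, 5 were not marked in OSKM B12 (17.2%), beside 2.83% and 0.316%. The 5 include the 3 members of the chromosome 17 locus. Of the 28 members marked in MEF and not in OSKM, 19 were marked in OSKM B12 (67.9%). This share was 80.7% for nearby lncRNA genes and 92.0% for coding genes. The mean covered share of the 55 was 40.6% against 26.6%, a ratio of 1.53, or 1.80 without the 3 members of the chromosome 17 locus. The density was higher in OSKM B12 for 50 of 55 members (90.9%, beside 99.4% of all genes) and lower for 4, with a median log2 change of 0.99, the same as over all genes (0.99). At least 2-fold higher were 25 of 55 (45.5%), against 47.9% of all genes, and at least 2-fold lower were 3 of 55, again those of the chromosome 17 locus, against 0.0889%. Among the 25 were Carmn, Lncppara, H19, E130102H24Rik and the let-7 host 6720427I07Rik. Gm26916, Gm11636, Gm26621 and Gm21817, also among the 25, had no peak in MEF or OSKM and met the mean limit only through the B12 libraries. The density of Carmn was 0.234 in OSKM and 0.551 in OSKM B12, and that of H19 was 0.0479 and 0.177. Gm26981 was the only other member of lower density in OSKM B12, and Gm49240 had no peak in either. Over the shared member bases the scaled pileup was 0.489 in OSKM and 0.780 in OSKM B12, a ratio of 1.59 with a counting error of 2.64%, against 1.57 over coding genes.

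The comparison of MEF B12 with MEF asked what vitamin B12 did without the factors, and its median difference was the smallest of the 3 comparisons. Their mean covered share was 36.7% in MEF and 42.4% with vitamin B12, a ratio of 1.15, or 1.10 without the chromosome 17 locus. Restricted to peaks whose −log10 q reached 5, it was 0.966, so its direction turned. The density was higher in MEF B12 for 40 of 55 members (72.7%, beside 90.9% of all genes) and lower for 15, with a median log2 change of 0.18 beside 0.21 over all genes. At least 2-fold higher were 8 of 55 (14.5%), against 4.88% of nearby lncRNA genes and 1.28% of all genes. At least 2-fold lower was 1 of 55, Gm26981, against 1.42% and 0.356%. Besides the chromosome 17 members, the 8 were E130102H24Rik, Gm11636, 2810433D01Rik, Gm26916 and Gm26621. Gm26916, Gm11636 and Gm26621 had no peak in MEF or OSKM and were covered over 76.4%, 34.9% and 27.4% in MEF B12 and over 69.1%, 60.1% and 22.6% in OSKM B12. These are genes of 931 to 2716 bases, for which a single peak can decide the value. They met the mean limit only through the B12 libraries, and the chromosome 17 members only through MEF B12 and OSKM. With no peak in MEF, their rise in MEF B12 is partly fixed by how they entered the 55. The share of 14.5% therefore cannot be read as an excess over the other genes. Over the shared bases the scaled pileup was 0.649 in MEF and 0.725 in MEF B12, a ratio of 1.12 with a counting error of 2.52%, against 1.14 over coding genes. Without division by the number of tags that ratio was 0.996.

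**Figure D4:**
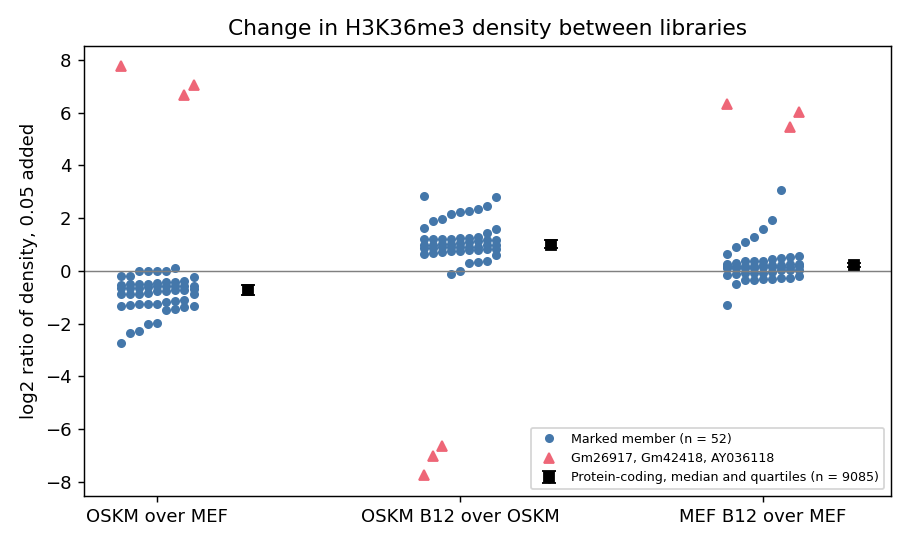
Log2 ratio of H3K36me3 density, with 0.05 added to each density, for the 55 members in the 3 comparisons between libraries. Circles are 52 members, triangles are Gm26917, Gm42418 and AY036118, and squares with bars are the median and quartiles of 9085 protein-coding genes. The circles sit around the coding median in each comparison and the triangles lie far off, above 0 in OSKM over MEF and MEF B12 over MEF and below 0 in OSKM B12 over OSKM.

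The 3 members of the chromosome 17 locus had the highest mean densities of all members. Gm26917 (39843013 to 39846341), Gm42418 (39846958 to 39848788) and AY036118 (39847113 to 39848035, other strand) were covered over 36.3%, 26.7% and 49.8% in MEF B12 and over 99.3%, 67.2% and 51.8% in OSKM, and had no peak in MEF or OSKM B12. RefSeq places a pseudogene related to 18S ribosomal RNA, Rn18s-rs5, at 39846354 to 39848202. The scaled pileup of their peaks was 7.26 to 9.61 in MEF B12 and 9.67 to 10.8 in OSKM, compared with at most 1.29 in the other 52 of the 55, whereas their fold enrichment over input was 1.21 to 1.27 and 1.34 to 1.35. Gm33838 on chromosome 9 had peaks of the same kind in the B12 libraries, with a scaled pileup of 7.47 in MEF B12 and 7.04 in OSKM B12 and a fold enrichment of 1.28 and 1.27, and it was covered over 7.76% and 7.69%. Peaks with a fold enrichment under 1.5 numbered 1, 7, 2 and 3 over chromosomes 1 to 19, and 0, 5, 2 and 1 of them touched members. Whether reads that align to several copies of a repeat were kept is unclear from the methods, and the part of this and of the input level in these calls was not tested.

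A peak in a single library was found for 68 of the 159 members with any peak. The strongest of these were 1700017J07Rik, covered over 34.3% in OSKM, Gm13833, over 25.3% in MEF B12, and 4632415L05Rik, over 11.3% in MEF. Their densities were 0.106, 0.0876 and 0.0418.

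Along the genes, the covered share of the members was higher at the 3′ end than at the 5′ end. Over the 43 marked members of at least 2 kb outside the chromosome 17 locus, each split into 5 equal bins, the bin at the 5′ end was covered over 17.1%, 23.2%, 14.4% and 21.5%, and the bin at the 3′ end over 57.8%, 56.6%, 30.9% and 49.98%. The last bin exceeded the first by 3.39, 2.44, 2.15 and 2.32 times. In the 8950 marked coding genes of this length the factors were 5.67, 5.32, 7.40 and 5.11. Of the 55 members, 30 had a RefSeq promoter window of 300 bases around a start site, and for 16 of them the window's start lay within 100 bases of the GENCODE start. None of these 16 windows was touched by a peak in any library, which allows a share of up to 19.4% by the Wilson interval. In marked coding genes 1.75%, 1.73%, 3.01% and 1.93% of 5549 such windows were touched.

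**Figure D5:**
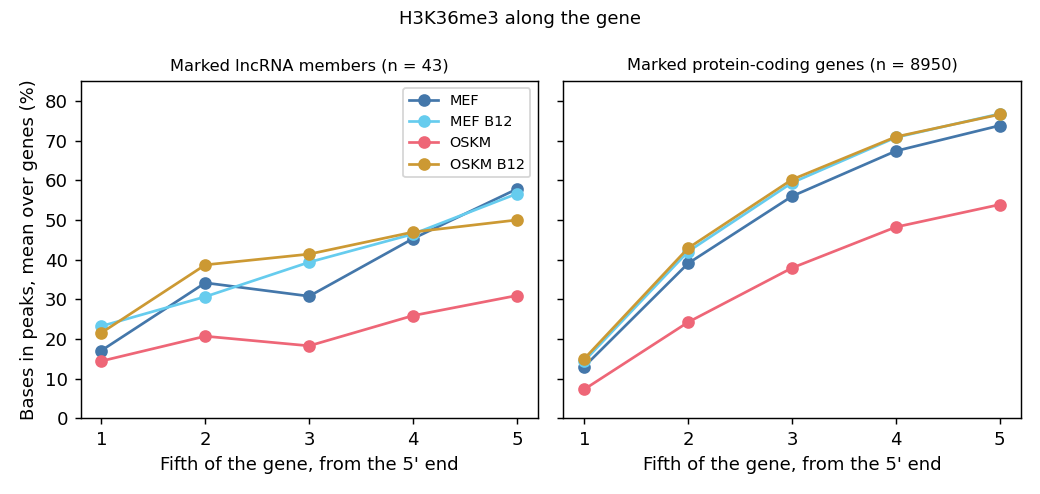
Mean percentage of bases in H3K36me3 peaks in each of 5 equal bins of the gene, from the 5′ end, for 43 marked members (left) and 8950 marked protein-coding genes (right) of at least 2 kb, with 1 line per library. In the members the share rises from between 14.4% and 23.2% in the first bin to between 30.9% and 57.8% in the last.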

How the data were processed

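The authors sequenced single-end reads of 75 bases, aligned them to mm10 with Bowtie 0.12.9, merged runs, removed duplicates and called broad peaks with MACS2 2.2.6 for each H3K36me3 library against its input, with q-value cut-offs of 0.05 and 0.1 and a genome size of 3209286105. The methods describe the Bowtie setting as placing a multiply aligning read at 1 position, although the option named usually discards such reads, so the treatment of repeats is unclear. In the deposited lists the pileup is an unscaled signal, the mean fragment coverage over a peak, and the fold enrichment is a ratio to the local input. The authors' significance is the −log10 of a p-value and of a q-value.

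From these, the covered share, scaled pileup (per 1000000 tags) and density of each GENCODE M21 gene were computed with Python 3.11, numpy 2.4.6, pandas 2.3.3 and scipy 1.17.1, with 0.05 added for log2 ratios. The interval arithmetic was checked on simulated data. The members, gene lists and limits were chosen with earlier results of these data known. Peaks outside chromosomes 1 to 19, 1110 to 2315 per list, were left out. The genes named were the members on the lists, the 12 of highest mean density, the 4 largest falls and rises from MEF to OSKM that moved the same way by covered share, the 4 longest of the 55, and up to 3 with a peak in 1 library. Other genes named with a count or a locus were chosen after their values were seen. List members without a peak are counted and not all named. No test was possible with 1 library per condition. The counting error of a ratio is its 95% interval from the estimated number of tags. Alternatives were stricter or equal numbers of peaks, other limits on distance and coverage, merged members, exons and other scalings. Leaving out the chromosome 17 locus or the members in RefSeq coding spans was added after seeing the data.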

Additional observations from a re-analysis of the deposited data

Results flagged for a closer look

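Chosen because the change with vitamin B12 went opposite ways in MEF and in OSKM, 10 named members are given here. The differences between the 2 changes were not tested, with 1 library per condition. Log2 ratios of density, with 0.05 added, are given for MEF B12 over MEF and then for OSKM B12 over OSKM.

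At the chromosome 17 locus the ratios were 6.01 and −7.75 for Gm26917, 6.34 and −6.66 for AY036118 and 5.46 and −7.03 for Gm42418. No peak was listed in MEF or OSKM B12, so the sizes of these ratios depend on the value added. They have 1 locus and, for Gm42418 and AY036118, the same peaks.

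For Mir17hg the values were −0.30 and 0.67. For Dancr the values were −0.29 and 1.00. For Gm27010 they were −0.18 and 2.26 and for 1810012K08Rik −0.36 and 1.97, in each case with no peak in OSKM. Tmem250-ps, which overlaps 1810012K08Rik, gave −0.076 and 2.79. For Gm26945, in the Meg3 region, they were −0.10 and 1.87, and for Gm14286 −0.072 and 0.83.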

How the results depend on the processing

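No paired analysis was possible because no condition had a second library, and for the same reason no replicate could be left out. Of the recomputed values, 70 stayed within their limits (1.5 times for a count, counting error for a ratio), 38 moved and 2 changed direction. Leaving out the chromosome 17 locus or the members in RefSeq coding spans was chosen after seeing the data. The causes of the other moves were not tested.

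Members marked in MEF, MEF B12, OSKM and OSKM B12 numbered 17, 18, 6 and 16 with peaks of −log10 q of at least 5, and 88, 100, 92 and 96 with any base in place of 10%, where OSKM was no longer the lowest. With 25% they numbered 26, 35 and 19 in the first 3 libraries, and over exons alone 48 in OSKM.

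The ratio of mean covered shares of OSKM to MEF was 0.372 with the q limit, over 17 members, and 0.616 with a fold enrichment of at least 2, which removes the chromosome 17 peaks, as without that locus. It was 0.779 at 10 kb from coding genes, 0.799 without peaks that reach coding genes, 0.694 with overlapping members merged, 0.668 over exons and 0.754 without members in RefSeq coding spans. For OSKM B12 to OSKM it was 2.57 with the q limit, 1.80 with the fold limit and without the locus, 1.45 at 10 kb, 1.45 without peaks that reach coding genes and 1.59 merged. For MEF B12 to MEF it was 0.966 with the q limit, so the direction turned, 1.10 with the fold limit and without the locus, 1.09 over exons and 1.19 without members in RefSeq coding spans.

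The ratio of pileup over shared bases, with fold enrichment in place of pileup, was 0.780 for OSKM to MEF, 1.46 for OSKM B12 to OSKM and 1.08 for MEF B12 to MEF. Without division by tags it was 1.41 for OSKM B12 to OSKM and 0.996 for MEF B12 to MEF, where the direction turned. With the q limit it was 1.69 and 1.20 for these comparisons, and for OSKM B12 to OSKM 1.65 at 10 kb and 1.65 without members in RefSeq coding spans. A member without a peak may hold the mark below the depth of these libraries.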

Other observations

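On the sex chromosomes, lncRNA genes at least 5 kb from coding genes were measured the same way but were not members. Of 103 such genes on the X chromosome, 5, 4, 1 and 5 were marked, in the order MEF, MEF B12, OSKM and OSKM B12. Ftx, a lncRNA of the X inactivation centre, was covered over 44.4%, 46.1%, 10.9% and 48.6%. Firre, a lncRNA of nuclear organisation, was covered over 24.8%, 30.8%, 3.09% and 30.3%. Of 540 such genes on the Y chromosome, 1 had a peak, Gm29650, in OSKM, over 11.99% of its span.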
